A study of Mus musculus with 42 samples.

Results

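Purkinje cells at postnatal days 14 and 21 (P14 and P21) were compared with Purkinje cells at P28 and P35, across all genes on a whole-genome expression array. The members were taken by their labels alone: 3 arrays at P14 and 4 at P21 formed the younger side of 7 arrays, and 4 at P28 and 4 at P35 the older side of 8, so 15 of the 42 deposited columns. All cells came from CB6-Tg(Gad1-EGFP)G42Zjh/J mice, known for short as G42, whose Gad67-GFP transgene is carried on a bacterial artificial chromosome and marks inhibitory neurons with green fluorescent protein, and every sample was labelled male. Slices of cerebellum were kept in AP5, CNQX and TTX, which block NMDA receptors, AMPA and kainate receptors and sodium channels, were digested with a protease, and cells were picked by hand for fluorescence and soma size. Both sides carry the same transgene and went through the same handling, so the sides differ by age alone as far as the labels go. Stellate/Basket cells of the same strain, at P14 (4 arrays), P21 (3), P28 (4) and P35 (2), served as the other cell type. The titles call the arrays biological replicates, and the number of animals behind each is not given in the sources used here.

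Purkinje cells are the large inhibitory neurons that send the only output of the cerebellar cortex. In the first postnatal weeks in mice they grow their dendritic tree, lose surplus climbing fibre inputs and gain parallel fibre and interneuron synapses. They then fire spontaneously and fast, which rests on voltage-gated channels, calcium buffers and a high energy supply. The comparison asks which transcripts still change once this first phase of synapse formation has passed.

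Values are log2 expression. Called here are genes with an adjusted p under 0.05 in limma and means at least 2-fold apart. Each array holds RNA pooled from picked cells, so fewer cells with a transcript and less of it per cell cannot be told apart. Of 17478 genes tested, 68 were called (0.389%), 25 higher (0.143%) and 43 lower (0.246%) at P28/P35. The median difference over all genes was -0.01 on the log2 scale, and the median standard error (SE) was 0.13. The changes were modest in size: the median called fold was 2.30, 59 of the 68 were under 3-fold, and the largest was 5.60-fold. With no minimum size, 500 genes were higher and 499 lower at an adjusted p under 0.05 (2.86% each). The arrays of both sides did not overlap at all in 116 genes (0.664%), 60 of them higher (0.343%) and 56 lower (0.32%); 16 of these were also called.

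**Figure D1:**
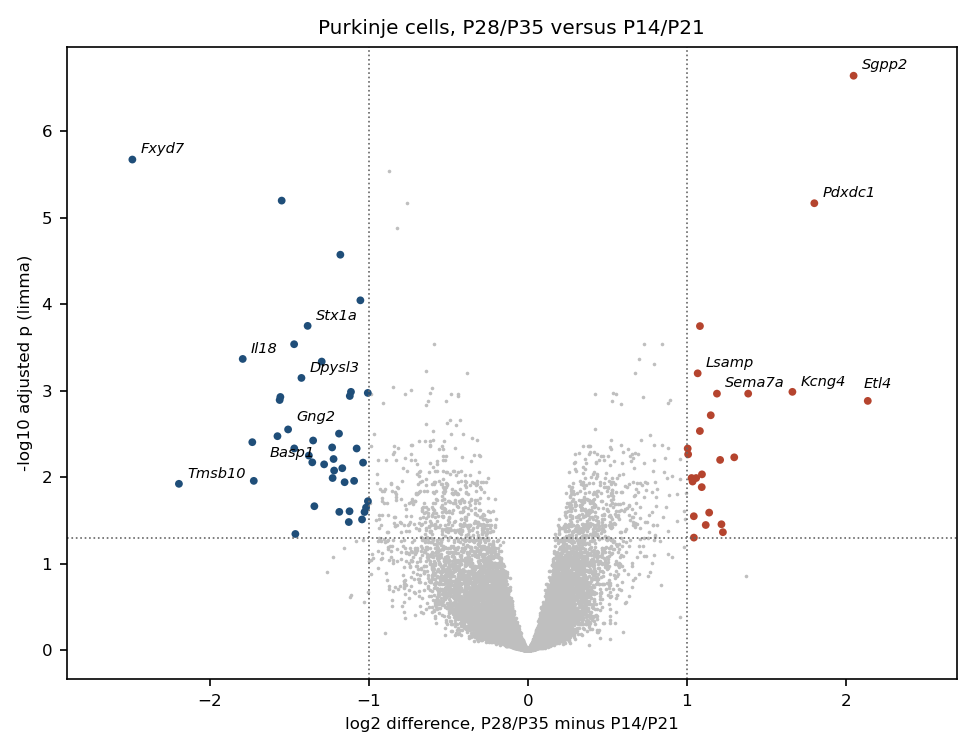
Each point is 1 of 17478 genes in Purkinje cells: the x axis gives the log2 difference, P28/P35 minus P14/P21, and the y axis -log10 of the adjusted p from limma. The 25 genes called higher are red and the 43 called lower blue; dotted lines mark a 2-fold difference and an adjusted p of 0.05, and Sgpp2, Pdxdc1 and Fxyd7 stand farthest out.

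The labelled cell type was borne out by its markers. Over 15 Purkinje markers the mean level ran from 12.21 to 12.46 in the younger and from 12.14 to 12.27 in the older arrays. Of these markers 11 were lower at P28/P35 and 4 higher. Their median difference was -0.26, against -0.01 over all genes, with -0.26 within the wide and -0.03 within the narrow arrays described below. Calb1, the calcium buffer calbindin, lay between 13.50 and 13.72 in all 15 arrays. Kit, a receptor of molecular layer interneurons, stayed between 5.10 and 6.09, and the mean over 9 interneuron markers between 5.50 and 6.36, highest in P21 array 2. The mean over 12 astrocyte and Bergmann glia markers was more uneven, 6.54 to 8.24 in the younger and 6.52 to 8.48 in the older arrays, with the highest values in P21 array 2 and P35 array 1, and Gja1 among them ran from 4.63 to 9.89. Granule cell (5.94 to 6.35), Golgi and unipolar brush cell (6.02 to 6.36), oligodendrocyte (6.69 to 7.43), microglia (5.43 to 5.74), endothelial and mural (5.79 to 6.42) and blood markers (5.10 to 5.49) stayed low on the scale, with the oligodendrocyte and endothelial values highest in P28 array 1. None of the 82 measured markers was called between the sides, and the share over all genes, 0.389%, gives few or none in so short a list. With no minimum size, the markers Plcb4 (0.56), Gabrd (0.56) and the oligodendrocyte marker Mog (0.66) passed as higher. Prkcb (-0.44) and Barhl1 (-0.29) passed as lower, against 5.72% of all genes passing in either direction. The part of these other cells in the results was not tested.

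The 15 arrays also differed in ways other than age, some of which were spread unevenly over the sides. Their medians ran from 6.02 to 6.11, but the interquartile range over all probe sets was 1.91 to 1.98 in 5 arrays (P21 array 1, P28 arrays 3 and 4, P35 arrays 1 and 2) and 2.04 to 2.23 in the other 10. These are called narrow and wide arrays here; the wide arrays hold 6 younger and 4 older samples, the narrow ones 1 younger and 4 older. Hybridization control probes averaged 8.13 to 9.23 in the younger arrays other than P21 array 1, which had 7.54, and 7.34 to 7.88 in the older arrays. A spiked control transcript was raised, 7.15 to 8.17, in P21 arrays 2 to 4 only, against at most 5.17 elsewhere. Xist, the RNA of the inactive X chromosome, was at 10.68 to 11.28 in 7 arrays and at 6.47 to 7.22 in the other 8, while the Y-linked Eif2s3y was at 4.17 to 4.41 in those 7 and at 6.95 to 9.02 in the others, although all were labelled male; 3 of 7 younger and 4 of 8 older arrays were of the first kind. Pairs of arrays of 1 age correlated across genes at 0.946 to 0.994 (median 0.971), and pairs across the sides at 0.951 to 0.983 (median 0.968), so 2 arrays of 1 age were in some cases less alike than 2 of different sides. The older arrays held close pairs: P28 arrays 3 and 4 at 0.994, P35 arrays 1 and 2 at 0.989, P35 arrays 3 and 4 at 0.993. Across the P35 pairs the values were 0.946 to 0.953, and P28 arrays 1 and 2 were at 0.975. The fits treat all arrays as independent. With arrays averaged by age and Xist status, 0 genes were called between the sides.

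Sgpp2, which encodes a phosphatase that removes the phosphate from sphingosine 1-phosphate, had the smallest adjusted p of all genes. Its level in the younger arrays was 7.74 at the lowest, 8.51 at the median and 8.86 at the highest, and in the older arrays 10.10, 10.35 and 10.91. Every older array lay above every younger one, by more than 1 log2 unit. It rose by 2.05 (SE 0.20), or 4.14-fold, with an adjusted p of 2.29e-07 in limma. The rise was 2.06 among the wide arrays and 1.76 among the narrow ones.

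Etl4, known as sickle tail and for its part in the development of the intervertebral discs, had the largest rise. Younger arrays ran from 5.40 through a median of 6.09 to 6.79, and older arrays from 7.12 through 7.96 to 9.20, again with no overlap. The difference was 2.14 (SE 0.38), 4.40-fold, with an adjusted p of 0.00131 in limma. It was 2.29 within the wide and 1.82 within the narrow arrays. The 5 other probe sets of Etl4 differed by at most 0.23 in either direction, and none passed, so the rise rests on 1 probe set.

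Kcng4 encodes Kv6.4, a potassium channel subunit that forms no channel alone and modifies Kv2 channels. The younger arrays lay at 6.89, 7.77 and 8.65 (lowest, median and highest) and the older at 8.63, 9.53 and 10.03. P21 array 4 and P28 array 2 met at the boundary, and all other arrays were apart. Kcng4 rose by 1.66 (SE 0.28), 3.17-fold, adjusted p = 0.00103 in limma, and by 1.34 and 2.27 within the wide and narrow arrays.

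Pdxdc1, which encodes a protein with a pyridoxal-dependent decarboxylase domain, was at 7.70, 7.80 and 9.27 in the younger and at 9.38, 9.82 and 10.18 in the older arrays. The highest younger value came from P21 array 1, and the other 6 lay at or below 7.96. The difference was 1.80 (SE 0.22), 3.49-fold, adjusted p = 6.81e-06 in limma, but 2.07 within the wide and 0.49 within the narrow arrays. Another probe set of Pdxdc1 went the other way, from a mean of 8.94 to 7.31, and with the mean over its probe sets the difference was -0.04. The direction for the gene as a whole is therefore not settled.

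The surface proteins Sema7a, a membrane-anchored semaphorin, and Lsamp, an adhesion molecule of the IgLON family, also rose with no overlap of arrays. Sema7a went from 9.07, 9.55 and 10.49 to 10.53, 10.86 and 11.24, a rise of 1.19 (SE 0.21; adjusted p = 0.00108 in limma). Lsamp went from 7.16, 7.46 and 8.03 to 8.21, 8.58 and 8.95, a rise of 1.07 (SE 0.17; adjusted p = 0.000629 in limma). In both, P21 array 1 was the highest younger array, and the rise within the narrow arrays was 0.44 and 0.38. Apol8, of the apolipoprotein L family, completes the 6 risen genes without overlap, with a rise of 1.01; its call held in 8 of 15 fits that left out an array, with a lowest difference of 0.89.

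Among the other leading rises, Chst8, a sulfotransferase that acts on N-acetylgalactosamine, was at 6.34, 6.88 and 7.59 and then at 7.03, 8.59 and 9.33, a rise of 1.39 (adjusted p = 0.00108 in limma), with overlapping arrays. Hebp2, a heme-binding protein, rose by 1.21 (adjusted p = 0.0063), with 1.48 in the wide and 0.18 in the narrow arrays. Bhmt2, a methyltransferase that makes methionine from homocysteine, rose by 1.30; it was at 6.65 in P21 array 1 and at 4.89 and 4.96 in P35 arrays 3 and 4, and with the array set as a block the difference was 0.85 (adjusted p = 0.191). The Chst8 call was also lost with that block (adjusted p = 0.0585). The Y-linked zinc finger gene Zfy2 and the X-linked testis gene Tcp11x2 rose by 1.22 and 1.23, but arrays of 1 age differed: both were at 7.70 to 8.15 in the 5 narrow arrays, at 6.14 to 7.61 in P28 arrays 1 and 2, and at 4.93 to 5.73 in all others. Either call held in 4 of 15 fits that left out an array, and with the array set as a block the adjusted p of both was 0.344. Cped1, Lrrc74b, Tpbpb, Zbtb3, Tfap2c and Iapp, called higher and named after their values were seen, had an order of arrays like that of Bhmt2. In each, P21 array 1 was the highest younger array, and P35 arrays 3 and 4 were the lowest older ones. With the block Iapp passed at 0.86 (adjusted p = 0.0261 in limma), and the others did not (adjusted p from 0.11 to 0.343).

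Fxyd7, a brain regulator of the sodium and potassium pump, had the largest fall. The younger arrays were at 8.82, 9.94 and 10.95 (lowest, median and highest) and the older at 6.67, 7.59 and 8.13. No arrays overlapped, and the lowest younger value was that of P21 array 1. Fxyd7 fell by 2.49 (SE 0.27), 5.60-fold, with an adjusted p of 2.13e-06 in limma. Within the wide arrays the difference was -3.02 and within the narrow ones -0.95.

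Il18 encodes interleukin-18, an inflammatory cytokine made as an inactive precursor. Its level was 10.32, 10.77 and 11.50 in the younger arrays and 8.32, 8.89 and 10.72 in the older. One older array, P28 array 2, lay among the younger ones; the next highest older array was at 9.42. Il18 fell by 1.79 (SE 0.28), 3.46-fold, adjusted p = 0.000429 in limma, and the difference was -1.79 within the wide and -1.71 within the narrow arrays.

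Stx1a, the plasma membrane SNARE protein syntaxin 1A of transmitter release, fell with no overlap of arrays. It was at 8.06, 8.39 and 8.79 in the younger and at 6.19, 6.97 and 8.03 in the older arrays. The fall of 1.38 (SE 0.20; adjusted p = 0.000178 in limma) was uneven by age: the 4 P28 arrays lay between 6.19 and 6.61, and the 4 P35 arrays between 7.33 and 8.03. The other Stx1a probe set, at a mean of 5.91 and 6.07, did not pass.

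Gng2, a gamma subunit of G proteins, showed the same order of ages. It was at 7.37, 7.89 and 8.63 in the younger and at 5.74, 6.34 and 7.30 in the older arrays, with P28 between 5.74 and 6.27 and P35 between 6.41 and 7.30. It fell by 1.51 (SE 0.29; adjusted p = 0.0028 in limma), and its 3 other probe sets were lower by 0.13 to 0.25 without passing. Gng3, a second gamma subunit, fell by 1.22 (adjusted p = 0.00615).

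**Figure D2:**
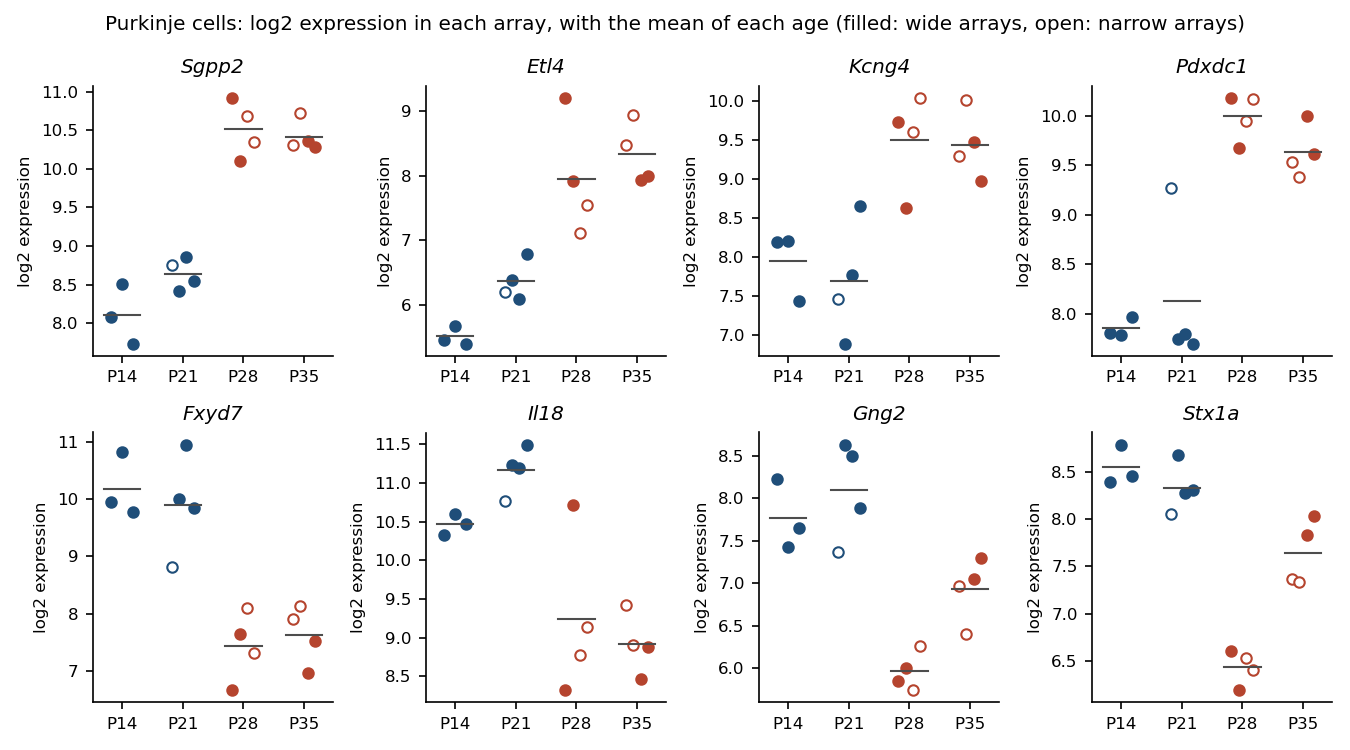
Log2 expression (y axes) of 4 genes that rose (upper row) and 4 that fell (lower row) in each of the 15 Purkinje arrays by age (x axes), with the mean of each age as a bar; filled points are wide arrays and open points narrow arrays. Sgpp2 and Fxyd7 separate P14/P21 (blue) from P28/P35 (red) in both kinds of array, while Pdxdc1 is at 9.27 in 1 of the younger arrays.

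The called genes that held in both array sets were Sgpp2, Etl4, Kcng4 and Apol8 among the rises and Il18, Gng2 and Stx1a among the falls. These 7 were called with the array set as a block and differed at least 2-fold in the same direction within each set. The narrow set holds 1 younger array, so the difference within it rests on that array. For the 2 largest of them in each direction with 1 start in RefSeq (GRCm38.p6), the 250 bases before the start are shown, to set the genes that moved side by side. Capitals mark 6 motifs searched on both strands: AGGTCA (bound by nuclear receptors), CACGTG (an E-box), TGACG (part of the cAMP response element), GGGCGG (a GC box), CCAAT and TATAAA. Positions are from the RefSeq table.
Sgpp2, chr1:78310096-78310345, plus strand: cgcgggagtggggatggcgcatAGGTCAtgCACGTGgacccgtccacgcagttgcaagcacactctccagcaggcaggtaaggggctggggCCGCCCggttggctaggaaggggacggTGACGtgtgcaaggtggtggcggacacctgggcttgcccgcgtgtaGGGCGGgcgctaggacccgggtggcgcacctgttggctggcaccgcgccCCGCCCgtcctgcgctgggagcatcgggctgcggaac
Kcng4, chr8:119635681-119635930, minus strand: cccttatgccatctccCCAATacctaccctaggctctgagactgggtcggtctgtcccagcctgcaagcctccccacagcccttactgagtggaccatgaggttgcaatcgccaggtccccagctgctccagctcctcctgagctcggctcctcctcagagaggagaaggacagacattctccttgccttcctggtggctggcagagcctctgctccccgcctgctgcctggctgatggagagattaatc
Il18, chr9:50554450-50554699, plus strand: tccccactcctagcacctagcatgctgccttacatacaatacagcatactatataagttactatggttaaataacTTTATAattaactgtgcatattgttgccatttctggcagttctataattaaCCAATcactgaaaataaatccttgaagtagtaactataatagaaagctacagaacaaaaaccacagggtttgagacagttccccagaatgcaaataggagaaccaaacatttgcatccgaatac
Gng2, chr14:19976694-19976943, minus strand: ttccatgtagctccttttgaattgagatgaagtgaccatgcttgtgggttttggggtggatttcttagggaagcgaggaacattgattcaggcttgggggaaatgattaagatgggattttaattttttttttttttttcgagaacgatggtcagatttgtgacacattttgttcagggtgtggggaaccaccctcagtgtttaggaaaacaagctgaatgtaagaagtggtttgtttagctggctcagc

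The Sgpp2 window is 70.8% G and C and holds 6 of these motifs: 1 AGGTCA, 1 E-box, 1 TGACG and 3 GC boxes. The Kcng4 window, 60.4% G and C, holds 1 CCAAT. Il18 has an A- and T-rich window, 35.6% G and C, with 1 CCAAT and 1 TATAAA on the opposite strand, and Gng2 (41.2%) holds none of the 6. Over the 32851 windows of this length in the table, the median is 52.4% G and C, and AGGTCA stands in 14%, CACGTG in 6.02%, TGACG in 17.8%, GGGCGG in 32.7%, CCAAT in 33.8% and TATAAA in 12.4%. No motif is in all 4 windows, as Gng2 holds none, and CCAAT is in both the Kcng4 and the Il18 window. Each match is a description of the letters only.

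Genes of neurite growth and the immature neuron had a median of -0.32, against -0.01 over all genes. The list median was -0.29 within the wide and -0.12 within the narrow arrays. Of 25 measured members, 3 were called lower and 0 higher, and 5 passed an adjusted p under 0.05 at any size, all lower; over all genes 0.246% were called lower and 2.86% passed as lower. Tmsb10, the actin-binding thymosin beta 10, was at 8.35, 10.45 and 11.30 in the younger and at 5.34, 8.23 and 10.15 in the older arrays. It fell by 2.19 (SE 0.52; adjusted p = 0.0119 in limma), and the older arrays were widely spread, lowest in P28 arrays 3 and 4 and highest in P28 arrays 1 and 2. Its other probe sets differed among themselves: 1 was lower by 1.64 and 1 higher by 0.34, both at an adjusted p under 0.05.

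Basp1, a membrane protein of growth cones, went from 10.98, 11.23 and 11.37 to 8.02, 9.86 and 11.02, a fall of 1.57 (SE 0.30; adjusted p = 0.00335 in limma); P28 array 2, at 11.02, was the only older array within the younger range. Dpysl3, a collapsin response mediator protein of growing axons, went from 5.90, 7.54 and 8.09 to 5.55, 5.65 and 6.85, a fall of 1.42 (SE 0.23; adjusted p = 0.000711 in limma), with P21 array 1 the lowest younger array. A second Dpysl3 probe set was lower by 1.30 and also passed. Marcks, an actin-linked substrate of protein kinase C, was lower by 0.89 and the tubulin Tuba1a by 0.39. With the array set as a block, 1 of the 25 members, Dpysl3, still passed.

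Proteasome and ubiquitin genes had a median of -0.31, with -0.33 within the wide and -0.28 within the narrow arrays. Uchl1, an abundant neuronal ubiquitin hydrolase, was the only one of 19 called: it was at 8.56, 9.61 and 10.13 in the younger and at 7.42, 8.0 and 8.90 in the older arrays, a fall of 1.38 (SE 0.29; adjusted p = 0.00561 in limma). At any size 6 of 19 passed, all lower, against 2.86% of all genes passing as lower, among them the proteasome core subunits Psma2 (-0.54), Psma4 (-0.58) and Psmb3 (-0.64). Within the narrow arrays Psmb3 was higher by 0.06, and Psma2 and Psma4 were lower (-0.82 and -0.20). Of 18 ribosomal protein genes all 18 differences over all arrays were negative, with a median of -0.29. The median was -0.34 within the wide arrays and -0.004 within the narrow ones, where the younger side is 1 array. Of the 18, 4 passed (Rpsa -0.60, Rpl19 -0.52, Rpl27 -0.51 and Rps15 -0.42) and 0 were called. Within the narrow arrays Rpsa and Rpl27 were higher (0.17 and 0.18), and Rpl19 and Rps15 lower (-0.32 and -0.45). Of 32 genes of oxidative phosphorylation 26 differences were negative. The list median was -0.20, with -0.23 within the wide and -0.07 within the narrow arrays. Of the 32, 6 passed, all lower and all under 2-fold. They include Uqcrc2 of complex III (-0.38), Cox7a2 of cytochrome c oxidase (-0.39) and Ndufa4 (-0.42). With the array set as a block, Uchl1 of the 6 proteasome and ubiquitin genes still passed, as did Ndufb5 and Uqcrc2 of the 6 oxidative phosphorylation genes and 0 of the 4 ribosomal ones. Counted over whole lists, 2 proteasome and ubiquitin and 2 oxidative phosphorylation genes passed as lower with the block, against 0.675% of all genes, and 1 oxidative phosphorylation gene as higher, against 1%. Hybridization controls and the array sets differ between the sides as well, and their part in these small shared differences was not tested.

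At any size 5.72% of all genes passed, against which the counts for synaptic and channel genes stand. Of 26 genes of synaptic vesicles and release 4 passed: Stx1a was called lower, and Syt2, the fast calcium sensor of release, rose by 0.53 (adjusted p = 0.0196 in limma), Sv2b by 0.43 and Sv2c by 0.36. Sv2c was at a mean of 5.04 and 5.40, near the low end of the scale. The arrays of both sides did not overlap for Syt2 (9.51 to 9.89 against 10.06 to 10.59), and its difference was 0.58 within the wide and 0.51 within the narrow arrays. None of 19 AMPA and kainate receptor genes and partners, 8 NMDA and delta receptor genes, 11 genes of GABA synthesis, release and chloride, 20 synapse adhesion and scaffold genes, or 13 voltage-gated calcium channel genes passed an adjusted p under 0.05 at any size, and in lists this short the share over all genes gives few or none. Of 12 GABA-A receptor subunits 2 passed: Gabra4 rose by 0.64 (adjusted p = 0.00561) and Gabrd by 0.56 (adjusted p = 0.0102). Gabrd, the delta subunit, was at most at 5.86 in the younger and at 5.95 to 6.63 in the older arrays, with no overlap, near the low end of the scale; it is also a granule cell marker.

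Of 12 genes of the mGluR1 pathway, which couples parallel fibre input to calcium release, Plcb4, its phospholipase, rose by 0.56 (adjusted p = 0.0278) and Prkca by 0.79 (adjusted p = 0.00424). Neither passed with the array set as a block. Another Plcb4 probe set, at a mean of 6.09 and 5.72, was lower by 0.37. Of 33 potassium channel genes, Kcnj3, a subunit of G protein-gated channels, rose by 0.74 (adjusted p = 0.0325). Its partner Kcnj9 had the largest difference, 1.37 (SE 0.56), and did not pass (adjusted p = 0.14): its arrays ran from 6.04 to 8.67 and from 6.90 to 9.94. Kcng4 was not in this list. Of 11 sodium channel genes, Scn9a alone passed (0.33), at a mean of 5.19 and 5.52, near the low end of the scale. Fgf14 had the largest difference of the 11, -0.79 (adjusted p = 0.308 in limma). Of 22 genes of calcium binding and transport, the calcium pump Atp2b1 (-0.80) and Necab2 (-0.72) passed as lower; neither did with the array set as a block (adjusted p = 0.287 and 0.388), and Atp2b1 was 0.43 higher within the narrow arrays.

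Of 40 axon guidance genes, Sema7a was called higher and the ephrin receptor Epha5 lower, against 0.143% and 0.246% of all genes. Epha5 was at 10.17, 10.64 and 10.92 in the younger and at 8.33, 9.26 and 10.58 in the older arrays, a fall of 1.35 (SE 0.29; adjusted p = 0.00672 in limma), and was lower by 0.58 within the wide and by 2.07 within the narrow arrays. Epha3 was lower by 0.80, from a mean of 5.83 to 5.04, near the low end of the scale. In the list of the axon initial segment, node and myelin contact, the adhesion molecule Chl1 was lower by 0.92 (adjusted p = 0.0352). Bcan, the brevican core protein of the perineuronal net, went from 8.27, 8.51 and 8.82 to 8.86, 9.32 and 9.54 with no overlap, a rise of 0.69 (adjusted p = 0.0115), and of 0.71 and 0.85 within the wide and narrow arrays. Cdkn1c, a cell cycle inhibitor, was called lower by 1.01, a call that held in 7 of 15 fits without an array. Among RNA-binding and splicing factors Ptbp1 was lower by 0.78 (adjusted p = 0.00786), and among chromatin genes Dnmt3a, Hdac4 and Tet3 were lower by 0.69, 0.66 and 0.34. None of these 4 passed with the array set as a block (adjusted p = 0.175, 0.21, 0.183 and 0.091).

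Over all genes 0.389% were called and 5.72% passed at any size, which gives few or none in most lists this short. Beside those shares, 36 of the 42 lists, the 9 marker lists among them, held no called gene, and 16 held no gene with an adjusted p under 0.05. Immediate early genes (24 measured), clock genes (19), thyroid hormone receptors and response genes (9), neurotrophin, IGF and receptor genes (15) and spinocerebellar ataxia genes (18) were among the latter. In the remaining functional lists, 1 gene passed as higher in glycolysis and lactate (Tpi1, 0.43) and in heat shock and ER stress (Hspa1b, 0.80), and 1 as lower in neurofilaments and microtubule proteins (Kif5b, -0.50), cholesterol synthesis (Insig1, -0.70) and MHC class I and interferon response (Irf7, -0.33). Of 5 Y-linked genes, Zfy2 was the only one called. Its level did not go with that of the Y-linked Eif2s3y among the older arrays. In P28 arrays 3 and 4 and P35 arrays 1 and 2, Zfy2 was at 7.98 to 8.15 and Eif2s3y at 4.38 to 4.41. In P35 arrays 3 and 4, Zfy2 was at 5.27 and 5.38 and Eif2s3y at 7.37 and 7.25. The Zfy2 rise is therefore not read as a rise of Y-linked expression. Endocannabinoid and phospholipid genes (9) gave none. Of the 50 functional list members that passed, 14 also passed in the same direction with the array set as a block: Stx1a, Syt2, Sv2c, Gabrd, Kcnj3, Dpysl3, Epha5, Sema7a, Bcan, Ndufb5, Uqcrc2, Tpi1, Celf2 and Uchl1.

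**Figure D3:**
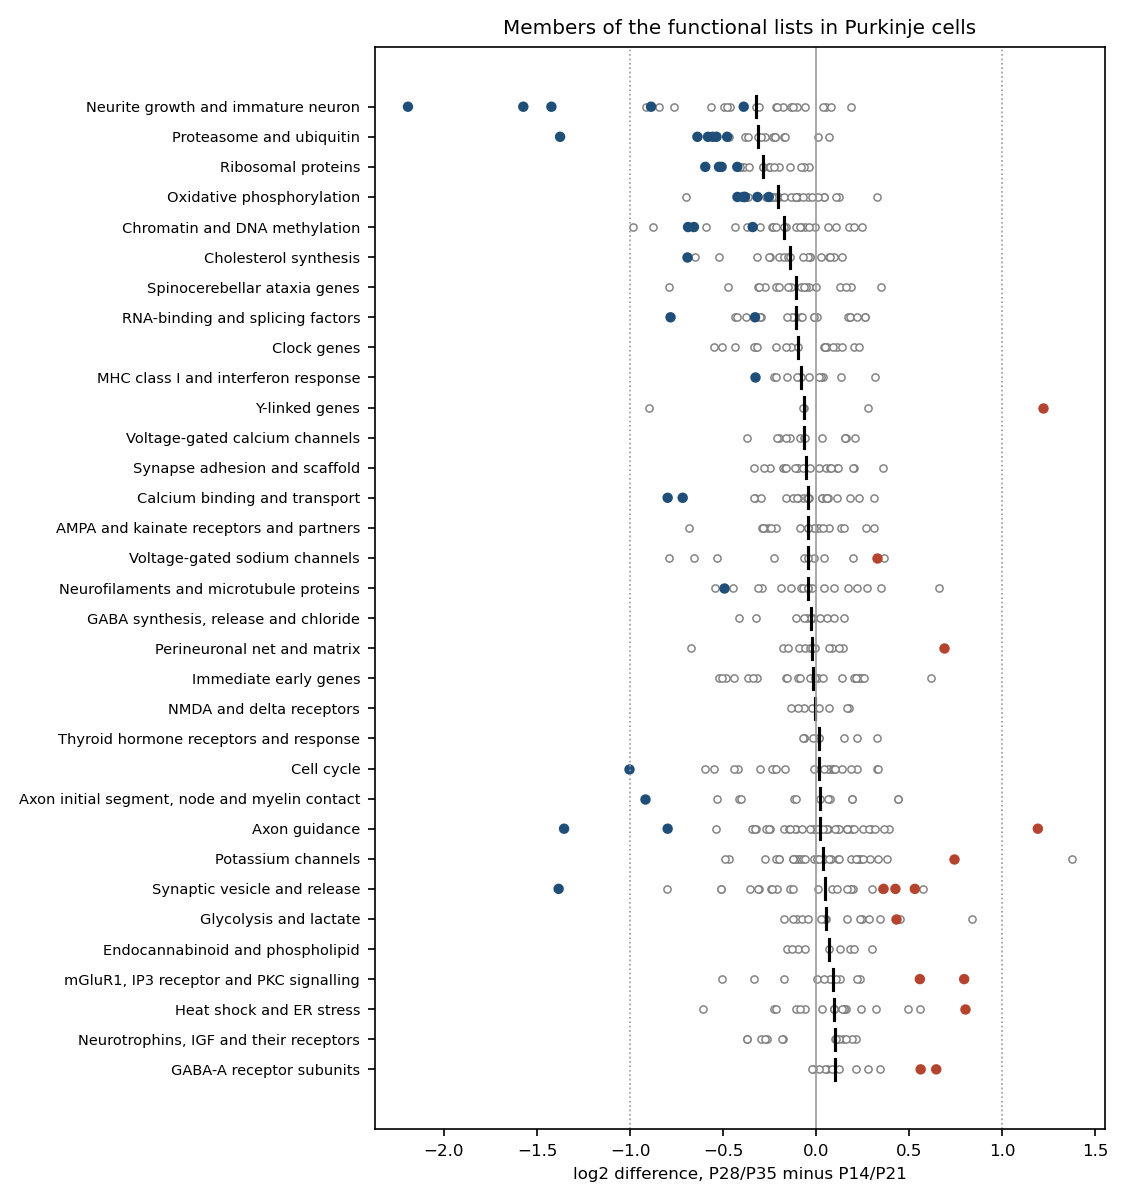
Log2 difference, P28/P35 minus P14/P21 (x axis), of every measured member of the 33 functional lists (rows, ordered by median). Filled points passed an adjusted p under 0.05 in limma, red higher and blue lower, open points did not, and the black bar is the list median; the lists of neurite growth, proteasome and ribosomal proteins have the lowest medians in the fit over all arrays, in an order that changes with the array set, and most lists are centred near 0.

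Among the remaining leading falls without overlap were Fam71e1 (-1.56), the cadherin gene Cdh10 (-1.22), Rbm19, an RNA-binding protein of ribosome assembly (-1.19), Sulf2, which removes sulfate from heparan sulfate (-1.12), Rpl37 of the large ribosomal subunit (-1.11) and the keratin gene Krt10 (-1.08), whose call was lost without P35 array 1 or 2. Flywch2 fell by 1.73 (SE 0.34; adjusted p = 0.00393 in limma), from 8.10, 8.45 and 8.79 to 5.55, 6.30 and 8.59. Its older values were split: P35 arrays 3 and 4 were both at 8.59, within the younger range, and the other 6 lay at or below 7.10. Of the named falls, Tmsb10, Flywch2, Mpped2, Basp1, Cdkn1c and Dct did not pass with the array set as a block (adjusted p from 0.0653 to 0.182), and Uchl1, Epha5, Sulf2 and Krt10 passed but fell short of 2-fold.

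Fewer genes were called once the array set was taken into account, in a fit of the 15 arrays as 2 sides without a mean per age. Without the set this fit called 38 genes, all among the 68. With the set as a block it called 27 (0.154%), and 24 of them were among the 68. The fall from 68 to 27 is therefore not due to the block alone. Among the wide arrays alone, 66 were called (0.378%), of which 23 were among the 68. All 68 kept their direction among the wide arrays and 62 among the narrow ones, where the younger side is 1 array and 0 of the 68 passed. The 6 that changed sign in the narrow arrays were Luc7l2 (-1.46 over all arrays, 1.97 in the narrow ones), Pcp4l1, Lrp1b, Synpo2, Rragd and Tcp11x2, named after their values were seen. With Xist status as a block, 65 of the 68 were still called, but this block was added to the main fit over 40 arrays. The counts for the 2 blocks are therefore not on 1 footing. Among the Xist-low arrays alone, 5 of the 68 were called and 67 kept their direction. Among the Xist-high arrays alone 60 were called, but there all 3 younger arrays are wide, with the raised spiked control, and all 4 older ones narrow, so age and array set cannot be told apart. Leaving out P21 array 1, the single younger narrow array, raised the count to 135, and leaving out P35 array 3 or 4, which are wide, raised it to 102 and 106.

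**Figure D4:**
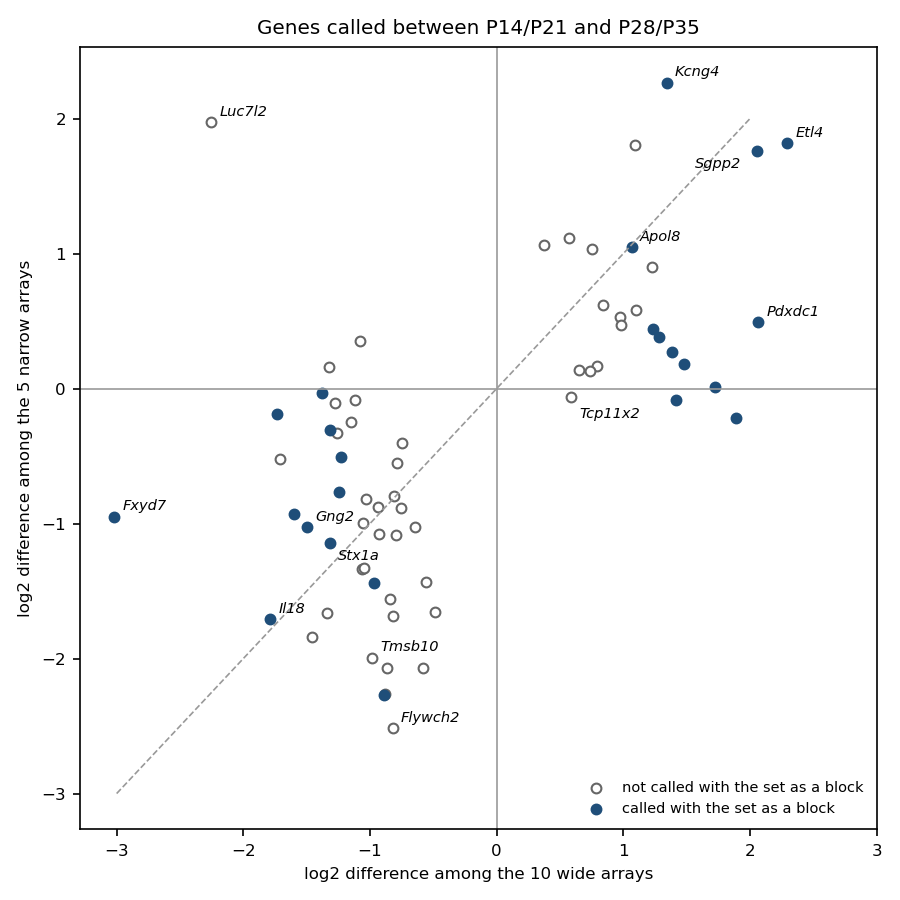
Log2 difference, P28/P35 minus P14/P21, of the 68 called genes among the 10 wide arrays (x axis, 6 against 4) and among the 5 narrow arrays (y axis, 1 against 4); the dashed line marks equal differences, and filled points were also called with the array set as a block. Sgpp2, Etl4, Kcng4 and Il18 lie far from 0 on both axes, and Luc7l2 lies at -2.25 and 1.97.

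The 3 steps between neighbouring ages were also compared. From P14 to P21, 11 genes were called (0.0629%), 7 higher (0.0401%) and 4 lower (0.0229%); from P21 to P28, 108 (0.618%), 38 higher (0.217%) and 70 lower (0.401%); and from P28 to P35, 67 (0.383%), 20 higher (0.114%) and 47 lower (0.269%). The largest of the 3 steps was P21 to P28 for 64 of the 68 genes called between the sides, and 44 of the 68 were called in that step in the same direction; as these genes were chosen for a difference across that step, the choice largely fixes both counts. From P28 to P35, 0 of the 68 were called in the same direction and 4 in the opposite one. Without P21 array 1 the P21 to P28 count was 257, and leaving out each array in turn gave 44 to 257 for it, 4 to 17 for P14 to P21 and 13 to 151 for P28 to P35.

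Gpr176, an orphan receptor coupled to G proteins, rose most from P14 to P21. Its 3 P14 arrays were at 7.27 to 8.18 and its 4 P21 arrays at 11.96 to 12.20, a rise of 4.20 (SE 0.37; adjusted p = 3.04e-08 in limma). It was then lower by 2.29 from P21 to P28 and higher by 1.31 from P28 to P35, so that the sides as a whole differed by 0.16. Cpne8, a calcium-dependent membrane-binding copine, rose by 3.45 from P14 to P21 (5.37 to 5.51 against 8.72 to 9.17) and fell by 2.87 from P28 to P35, where arrays 1 and 2 were at 8.03 and 7.60 and arrays 3 and 4 at 5.25 and 5.23. Both Cpne8 calls were lost without some of the arrays: the first without any P14 array, the second without P35 array 3 or 4. Zic1, a transcription factor of other cerebellar neurons, rose by 2.17 at an adjusted p of 0.0498 and reached 8.69 in P21 array 2, the array with the highest interneuron and the second highest glial marker level. Its call held in 1 of 7 fits that left out an array.

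Lower from P14 to P21 were Iah1, an esterase (-1.80), Insig1, which holds back the activators of cholesterol synthesis (-1.48), and Dct, a tautomerase of melanin synthesis (-1.18), the only gene of the 68 called in this step. The calls of Insig1 and Dct were lost without P14 array 1 or 2, that of Dct also without P21 array 3. The Iah1 call held in 1 of 7 fits without an array; P21 array 1 lay with the P14 arrays (9.91 to 10.54) and the other P21 arrays at 7.74 to 8.05.

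From P21 to P28 the largest rises were those of Pdxdc1, Sgpp2 (both 1.87) and Kcng4 (1.80), and the largest falls those of Lnx1, a ubiquitin ligase of Numb (-2.70), Fxyd7 (-2.47) and the metallophosphoesterase gene Mpped2 (-2.44). Mpped2 was at 10.12 to 10.53 in the 7 younger arrays, at 10.19 in P28 array 2 and at 6.07 to 7.82 in the other P28 arrays. Its call in this step was lost without P21 array 3 or P28 array 1, and that of Kcng4 without P21 array 2.

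From P28 to P35 Hspa1b, an inducible heat shock protein, rose by 2.57 (SE 0.33; adjusted p = 0.000189 in limma): the P28 arrays were at 7.17 to 7.58 and the P35 arrays at 9.55 to 10.40. Gng4, a further G protein gamma subunit, rose by 2.44 and Bscl2, the lipid droplet protein seipin, by 2.01; in both, P28 array 2 (11.07 and 10.60) already lay with the P35 arrays, and the Gng4 call held in 2 of 8 fits without an array. Igfbp6, which binds insulin-like growth factors, fell by 1.85, a call lost without P35 array 4, and Sat1, which acetylates spermidine and spermine, by 1.57.

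Outside the compared ages the leading genes took several courses. Fxyd7 had a mean of 6.06 ± 0.25 (SD, n = 3) at P3, which is followed by 6.73 ± 0.60 (n = 3) at P7, 10.18 ± 0.56 (n = 3) at P14 and 8.59 ± 0.62 (n = 4) at P56; its mean was highest at P14 and P21 among the 7 ages. Il18 had a similar course, with 6.85 ± 0.31 (n = 3) at P3, 11.17 ± 0.30 (n = 4) at P21 and 9.72 ± 0.57 (n = 4) at P56. Stx1a, Basp1, Dpysl3 and Tmsb10 were highest at P3 and P7: Dpysl3 was at 12.38 ± 0.07 (n = 3) at P3 and at 7.75 ± 0.30 (n = 3) at P14, so its level at P14 already lay far below that at P3. Kcng4 was at 6.07 ± 0.08 (n = 3) at P3 and at 9.73 ± 0.32 (n = 4) at P56. Etl4 was at 8.01 ± 0.55 (n = 3) at P3, lowest at P14 (5.51 ± 0.15, n = 3) and highest at P56 (9.30 ± 0.17, n = 4). Pdxdc1 was back at 7.71 ± 0.04 (n = 4) at P56. Of the 68 called genes, 40 had a P56 mean on the older side of the midpoint between both sides, 14 of the 25 higher and 26 of the 43 lower genes, and 28 had one on the younger side.

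**Figure D5:**
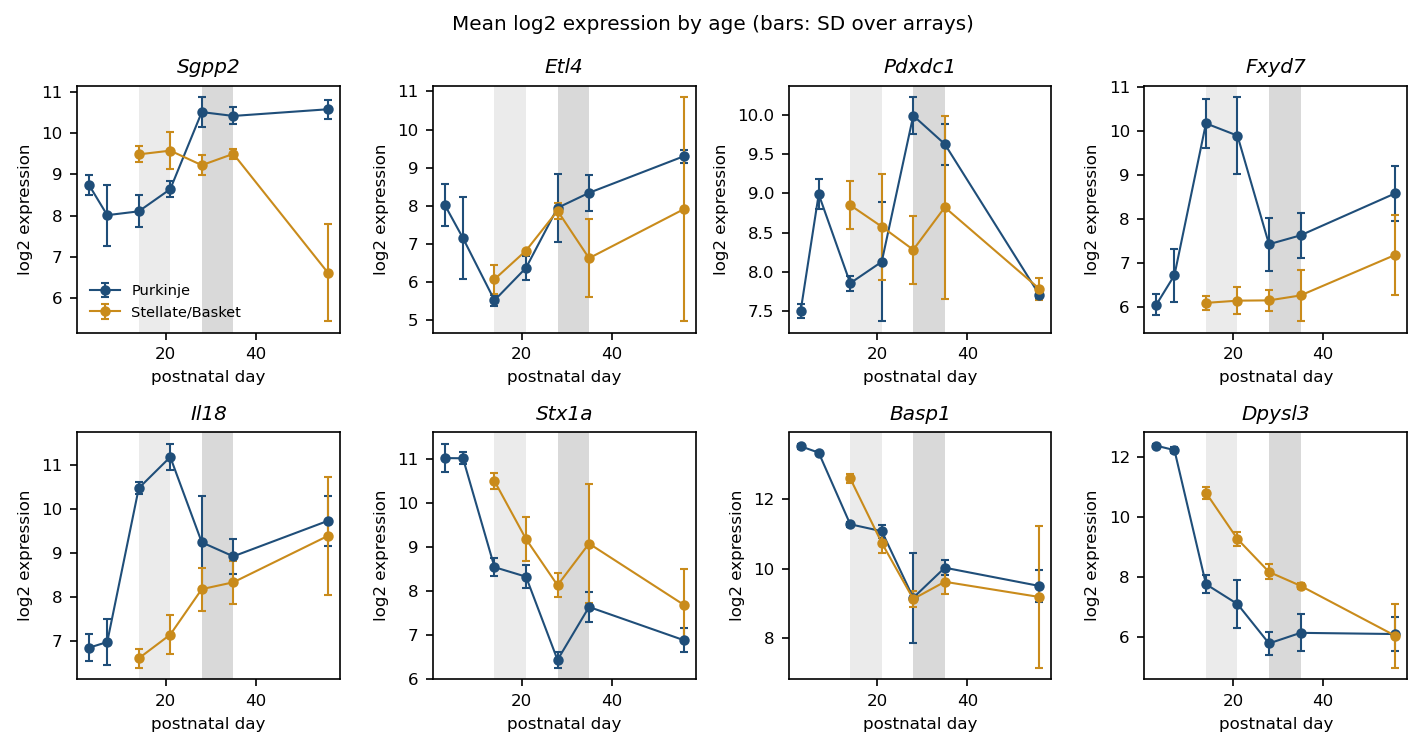
Mean log2 expression (y axes) by postnatal day (x axes) in Purkinje cells (blue) and Stellate/Basket cells (ochre), with the SD over arrays as bars; light and dark grey bands mark P14 to P21 and P28 to P35. Fxyd7 and Il18 peak in Purkinje cells at P14 and P21, Sgpp2 steps up at P28 and is at 10.58 at P56, and Basp1 and Dpysl3 are lower at the older ages in both cell types.

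In Stellate/Basket cells the same contrast called 444 genes (2.54%), 272 higher (1.56%) and 172 lower (0.984%). These arrays share none with the Purkinje comparison. Of the 68 Purkinje genes, 10 were called there too, which is 14.7% of the Purkinje and 2.25% of the Stellate/Basket calls, against 2.54% of all genes. In the same direction were Basp1, Dpysl3, Gng3, Socs2, Stx1a and Uchl1, all lower, and Ddo, higher; in the opposite direction were Il18, Cdh10 and Spag5. In the list of neurite growth and the immature neuron, the median difference over the 25 members was -0.96 in Stellate/Basket cells.

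The change differed between the cell types in 424 genes (2.43%), 139 with the Purkinje change higher (0.795%) and 285 with it lower (1.63%). Among them were 22 of the 68, but the 68 were chosen for a Purkinje change, which is part of the tested difference, so the choice raises this count. The leading genes differed in how much of the difference between the cell types lay in the Purkinje cells. Dcx, the migration protein doublecortin, was at a mean of 6.10 and 6.04 in Purkinje cells and at 10.29 and 7.25 in Stellate/Basket cells, a difference in change of 2.98. Glra2, a glycine receptor subunit, Ndrg1, Insm1 and Pxylp1 likewise fell in Stellate/Basket cells, and of these Insm1 passed in Purkinje cells (0.79 higher); the Pxylp1 call was lost without 1 of their P28 arrays. Of the opposite sign were Id4, an inhibitor of basic helix-loop-helix factors (-4.14), the catenin Ctnna1 (-3.96), Clmn (-3.37), the selenium carrier Selenop (-3.20), Il18 (-3.18) and the linker histone H1f2 (-3.16). In these 6 the Stellate/Basket level rose, by 1.39 (Il18) to 3.18 (Clmn); the Purkinje difference was -0.98 for Id4 (adjusted p = 0.0853) and -0.85 for Ctnna1 (adjusted p = 0.259), which did not pass. Beside this, the mean level over the 12 glial markers given above went, in the Stellate/Basket arrays, from a median of 8.26 to 10.57. That of the 15 Purkinje markers went from 9.26 to 10.29. The median difference was 2.08 over the glial and 0.52 over the Purkinje markers. The part of these markers' cells in the differences between the cell types was not tested.

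Of the 12 leading differences between the cell types, 2 belonged to genes called in Purkinje cells, Il18 and Sgpp2. Il18 was at 6.33 to 7.56 in the 7 younger and 7.61 to 8.72 in the 6 older Stellate/Basket arrays, with no overlap, and rose there by 1.39 (adjusted p = 0.00175) while it fell in Purkinje cells. Over 8 microglia markers the mean level in the same arrays went from a median of 5.59 to 6.28, and over 15 Purkinje markers from 9.26 to 10.29. The part of either in the Il18 rise was not tested. Sgpp2 had a mean of 9.52 and 9.32 in Stellate/Basket cells, so Purkinje cells lay below that level at P14/P21 (8.41) and above it at P28/P35 (10.46); the change differed by 2.26 (SE 0.29; adjusted p = 5.06e-06 in limma). Fxyd7, at 5.85 to 6.69 in all 13 Stellate/Basket arrays, was higher in Purkinje cells on both sides, and its change differed by -2.56 (adjusted p = 9.2e-05).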

How the data were processed

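The authors deposited log2 expression, 1 value for each probe set on Affymetrix MOE430.2 arrays; R 2.9.1 and GCRMA are named in the submitters' processing notes, without their role. Polyadenylated RNA was amplified in 2 rounds, per the labels. Detection calls were not used here, and precision depends on how many arrays a group has. Of 42 columns, 2 of Stellate/Basket cells equal the mean of 2 others and were left out. Of 45101 probe sets, 34958 carry 1 gene symbol and gave 18194 genes. The brightest probe set on average stood for a gene, and 17478 genes passed a floor of 5 (log2) in 3 or more arrays.

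The model in limma 3.58.1 (R 4.3.3) held 12 means, 1 for each age of both cell types, over 40 arrays. Benjamini-Hochberg adjustment ran over all 17478 genes and gave the adjusted p printed, other than those with the array set as a block. Those came from a limma fit of the 15 Purkinje arrays as 2 sides plus the set, adjusted over the same genes. Fits within the wide, narrow, Xist-low or Xist-high arrays also held 2 sides without a mean per age. The sides are array-weighted means. Figures used Python 3.11.15 and matplotlib 3.10.9. The procedure was tested on simulated data. Named were the 12 largest called genes in each direction, those without overlap first, the 3 largest in each direction of each step, the 6 largest in each direction of the difference between cell types, up to 4 called or the 2 largest members of each list, and check genes; list members that passed, genes shared with Stellate/Basket cells and genes that changed sign were added after their values were seen. The members, the 42 lists and the rules were chosen with earlier results of these data known. Alternatives covered filters, probe set summaries, models, scaling, thresholds and left-out arrays; those on array sets, Xist status, the interquartile range, P28 arrays 1 and 2 and no minimum size were added after the data were seen.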

Additional observations from a re-analysis of the deposited data

Results flagged for a closer look

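In 7 of 62 groups tested (31 named genes, each on both sides), 1 array stood apart from the others of its side. For independent groups chance alone gives about 1 in 20. These groups share the same arrays, and their genes were chosen from these data, so that share does not measure this count. Of the 7 groups, 5 concern P21 array 1, the only narrow array among the younger ones. Pdxdc1 at 9.27, Bhmt2 at 6.65, Tcp11x2 at 7.81 and Zfy2 at 7.91 were high there, and Dpysl3 at 5.90 was low. The nearest younger arrays were at 7.96, 5.21, 5.22, 5.73 and 7.32. P28 array 2 was high among the older arrays for Hebp2, at 10.77 against 10.01 for the next, and for Il18, at 10.72 against 9.42.

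The change from P14/P21 to P28/P35 differed between Purkinje and Stellate/Basket cells, by the test of the difference itself in limma, in 11 named genes of the Purkinje comparison. These genes were chosen for a Purkinje change, which is part of the tested difference. Purkinje cells had the higher change in Sgpp2 (2.26), Pdxdc1 (2.07), Kcng4 (1.63) and Bhmt2 (1.41). They had the lower change in Il18 (-3.18), Fxyd7 (-2.56), Cdh10 (-2.23), Epha5 (-2.09), Fam71e1 (-1.36), Rbm19 (-1.35) and Dct (-1.21). Marker levels of glia and of Purkinje cells in the Stellate/Basket arrays moved with age as given above, and their part was not tested.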

How the results depend on the processing

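The count of 68 genes called between P14/P21 and P28/P35 moved by over 1.5 times under these settings: 44 in a fit of the 15 arrays with 1 mean per age, 38 with 2 groups, 31 with the mean of probe sets, 156 with each probe set as a unit, 129 with array weights, 337 at 1.5-fold, 44 at an adjusted p under 0.01, 103 without P28 and 165 without P35. Of settings added after the data were seen, it was 27 with the array set as a block, 3 in the narrow arrays, 43 with the interquartile range as a covariate, 106 without P28 arrays 1 and 2, 21 among the Xist-low and 639 among the Xist-high arrays (all younger ones wide, all older ones narrow), 999 with no minimum difference, and 0 with arrays averaged by age and Xist status, where 630 genes had an unadjusted p under 0.05 in limma. The shift of the median of all genes between scalings was at most 0.03. Leaving out each array gave 51 to 135. For P14 to P21, P21 to P28 and P28 to P35, array weights gave 62, 456 and 329 calls and the mean of probe sets 5, 54 and 36, and leaving out each array 4 to 17, 44 to 257 and 13 to 151. In Stellate/Basket cells the mean of probe sets gave 251 calls and leaving out each array 382 to 527; for the difference between cell types these were 256 and 356 to 511. The cause of these shifts was not tested. Of 31 named called genes, 29 kept their direction under all 43 settings; Pdxdc1 turned to -0.0387 with the mean of probe sets, and Tcp11x2 to -0.0926 among the Xist-low and -0.0659 among the narrow arrays. Same-numbered replicates of different ages correlated at -0.47 to 0.34 in their deviations, so the numbers do not pair the samples; with the replicate block 68 genes were called.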
